A study of Mus musculus with 36 samples.

Results

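Integrins are cell-surface receptors built from an alpha and a beta chain, and 10 genes that encode such chains were followed here in the hindlimb muscles of mice that lack the BMP-binding Ig3 domain of MuSK. They are the alpha subunits Itga1, Itga5, Itga6, Itga7, Itga8, Itga9 and Itgav and the beta subunits Itgb1, Itgb5 and Itgb6, which were found by symbol among the 51912 Ensembl gene IDs of the count tables and are 10 of the 26 integrin genes listed there. The set was chosen by measured values: the fall of Itga5 in the ∆Ig3-MuSK soleus, and the response of Itga8 to the genotype, which differed between the soleus and the TA (tibialis anterior). The genotype values that led to this choice are therefore given as a description without a test, and tests are given for the difference between the muscles in the other 8 genes. RNA-seq libraries were made from the whole TA, a muscle rich in fast fibers, and the whole soleus, rich in slow fibers, of 3-month-old C57BL/6 mice, with 9 libraries for each muscle of each genotype, 36 in all. The ∆Ig3-MuSK mice are homozygous for a germline CRISPR-Cas9 deletion of Musk exons 6 and 7, so every cell of the animal carries it, and founders were backcrossed to WT C57BL/6 mice. WT animals carried no such allele, and the labels name no treatment.

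In muscle, integrins link the basal lamina outside the fiber to talin, kindlin and the actin cytoskeleton inside it. Itgb1 encodes the beta chain shared by most alpha chains listed here. Of these, the Itga7 product pairs with it as the main laminin receptor of the mature myofiber at myotendinous and neuromuscular junctions, while the Itga5 product forms the classical fibronectin receptor and is prominent in developing muscle and in vessels. The Itga6 product also binds laminin, the Itga1 product binds collagens, and the Itga9 product binds tenascin and related proteins. The Itga8 product, known from smooth muscle and mesenchymal cells, and the Itgav product read the RGD peptide of nephronectin, fibronectin and vitronectin, and the Itgav chain also pairs with the products of Itgb5 and Itgb6 to bind vitronectin and latent TGF-beta.

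Library totals over all genes ran from 43492062 to 78660422 counts. Counts of the 10 genes lay between 63 and 11901 per library, so that Itga8 in the TA, with 63 to 180 counts, carried the most counting error. Levels are given in CPM, a gene's counts relative to the total of its library, scaled for composition with TMM factors over all 36 libraries. Musk, the edited gene, was at 2.87 to 5.58 CPM in WT TA, 2.62 to 4.01 CPM in ∆Ig3-MuSK TA, 12.5 to 18.4 CPM in WT soleus and 8.07 to 17.5 CPM in ∆Ig3-MuSK soleus. These counts cover all exons of the gene and do not show the deleted part. The 4 slow-fiber markers (Myh7, Tnnt1, Tnni1 and Myl3) summed to 22.6 to 111 CPM in the TA and 12538 to 18406 CPM in the soleus, which fits the labelled muscles. WT soleus libraries 1 and 2 stood apart from the others of their group, with 24863 and 23495 CPM of the 4 fast-fiber markers (Myh4, Myh1, Tnnt3 and Tnni2) against at most 16109 CPM in the other 7. ∆Ig3-MuSK soleus library 8 held 23.9 CPM of the 5 tendon markers (Tnmd, Scx, Fmod, Thbs4 and Mkx) against at least 213.7 CPM in the rest of the group. The fold changes of the 10 genes that involve these libraries are given with and without them where they moved most. The alpha chain shares and within-group correlations are given with all libraries only. For the lists of other integrins, ligands, partners and markers, no values are given without ∆Ig3-MuSK soleus library 8. Because these are whole muscles, fewer cells of a type cannot be told apart from less RNA per cell.

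The genes lie on 7 chromosomes of GRCm38, and Itga6, Itga8, Itgav and Itgb6 share chromosome 2. Itga5 (ENSMUSG00000000555) lies on chromosome 15 from 103344286 to 103366763 and Itga8 (ENSMUSG00000026768) on chromosome 2 from 12106632 to 12301922, both on the minus strand. Itgav (ENSMUSG00000027087) lies on chromosome 2 from 83724397 to 83806916 on the plus strand. On the plus strand are also Itga6 (chromosome 2, 71745616 to 71858416), Itga7 (chromosome 10, 128933818 to 128958282), Itga9 (chromosome 9, 118606690 to 118901003), Itgb1 (chromosome 8, 128685654 to 128733200) and Itgb5 (chromosome 16, 33829665 to 33949338). Itga1 (chromosome 13, 114953096 to 115101964) and Itgb6 (chromosome 2, 60598292 to 60722643) are on the minus strand. Exons of Itga7 overlap Mettl7b by 9 bp and those of Itgav overlap Gm13684 by 634 bp, genes with median counts of 37 and 4. Exons of Itga1 overlap Gm49395, a protein-coding gene on the same strand, by 685 bp, and this gene is absent from the count tables. A RefSeq promoter (GRCm38.p6) was found for 8 of the 10 genes, all but Itga6 and Itga7. The 250 bases before the RefSeq start site are shown for the 2 genes behind the choice of the set and for Itgav. Its levels in the TA and the soleus did not overlap in either genotype, a trait that was not counted over all genes. The Itga5 window is chr15:103366792-103367041 and the Itga8 window chr2:12301945-12302194, both on the minus strand, and the Itgav window is chr2:83724147-83724396 on the plus strand. The windows hold 0 bases of annotated exons of these genes, and capitals mark the motif matches named after them.
Itga5: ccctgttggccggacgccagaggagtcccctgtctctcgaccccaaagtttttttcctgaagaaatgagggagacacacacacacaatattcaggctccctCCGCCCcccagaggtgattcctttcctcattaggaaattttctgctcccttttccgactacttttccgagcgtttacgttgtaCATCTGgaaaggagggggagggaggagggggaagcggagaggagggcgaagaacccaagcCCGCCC
Itga8: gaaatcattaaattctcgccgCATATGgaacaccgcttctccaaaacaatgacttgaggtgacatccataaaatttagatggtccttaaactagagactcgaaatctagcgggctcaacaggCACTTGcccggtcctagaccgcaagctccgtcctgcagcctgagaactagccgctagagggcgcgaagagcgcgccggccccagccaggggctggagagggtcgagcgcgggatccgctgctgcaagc
Itgav: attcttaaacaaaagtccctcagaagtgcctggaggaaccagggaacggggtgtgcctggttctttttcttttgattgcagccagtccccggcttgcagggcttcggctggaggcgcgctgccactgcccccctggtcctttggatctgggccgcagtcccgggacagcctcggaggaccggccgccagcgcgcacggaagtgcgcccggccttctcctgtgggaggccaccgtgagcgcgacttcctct
Both strands were searched for 7 motifs: the GC box GGGCGG, the E-box CANNTG that myogenic factors read, the BMP-type SMAD element GGCGCC, the CCAAT box CCAAT, the TATA box TATAAA, the AP-1 site TGANTCA and the TEAD site GGAATG. The Itga5 window held 2 GC boxes, printed as CCGCCC, and 1 E-box, the Itga8 window held 2 E-boxes, and the Itgav window held 0 matches of the 7. Among all 32851 RefSeq windows of this length, 66.2% held an E-box, 32.7% a GC box and 9.59% the BMP-type element, so that an E-box in a window is common. The letters searched do not overlap each other in these windows. The GC content was 55.6% for Itga5, 56.4% for Itga8 and 64.4% for Itgav, beside a median of 52.4% over all windows.

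Per kilobase of exon the beta subunits and Itga7 led in all 4 groups, and Itga8 was lowest. In RPKM (CPM divided by the kilobases of annotated exon), the median of the 9 WT TA libraries was 33.9 for Itgb1, 25.01 for Itgb5, 10.3 for Itga7 and 4.85 for Itgb6, and each of these ranges lay apart from the next. Itga6 (median 2.83 RPKM), Itgav (1.85) and Itga5 (1.80) followed with overlapping ranges, then Itga1 (0.581), Itga9 (0.480) and Itga8 (0.198), where each range again overlapped the next. The first 4 kept this order in every group, although the ranges of Itgb1 and Itgb5 overlapped in ∆Ig3-MuSK TA and those of Itgb6 and the next gene overlapped in the soleus of each genotype. In WT soleus Itga5 was next after these at 4.17 RPKM, where its range overlapped those of Itgb6 and Itga6, and Itga9 (1.35 RPKM) stood above Itga1 (0.921 RPKM) with overlapping ranges. In ∆Ig3-MuSK soleus Itga5 ranked below Itga6 and Itgav again, at 3.17 RPKM, with ranges that overlapped in these neighbours.

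Among the 7 alpha chains, Itga7 made up most of the summed RPKM in the TA. Its share had a median of 56.3% in WT TA (range 52.8% to 60.6%) and 54.0% in ∆Ig3-MuSK TA (52.4% to 61.8%). In the soleus the median share was 42.3% in WT (37.3% to 52.8%) and 45.6% in ∆Ig3-MuSK (44.7% to 48.9%). The Itga5 share had medians of 10.1% in WT TA, 11.0% in ∆Ig3-MuSK TA, 16.6% in WT soleus and 13.6% in ∆Ig3-MuSK soleus. The sum of the 7 alpha chains was 0.545, 0.549, 0.527 and 0.487 times the Itgb1 RPKM at the median of the same 4 groups. These shares describe RNA and not assembled receptors.

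**Figure D1:**
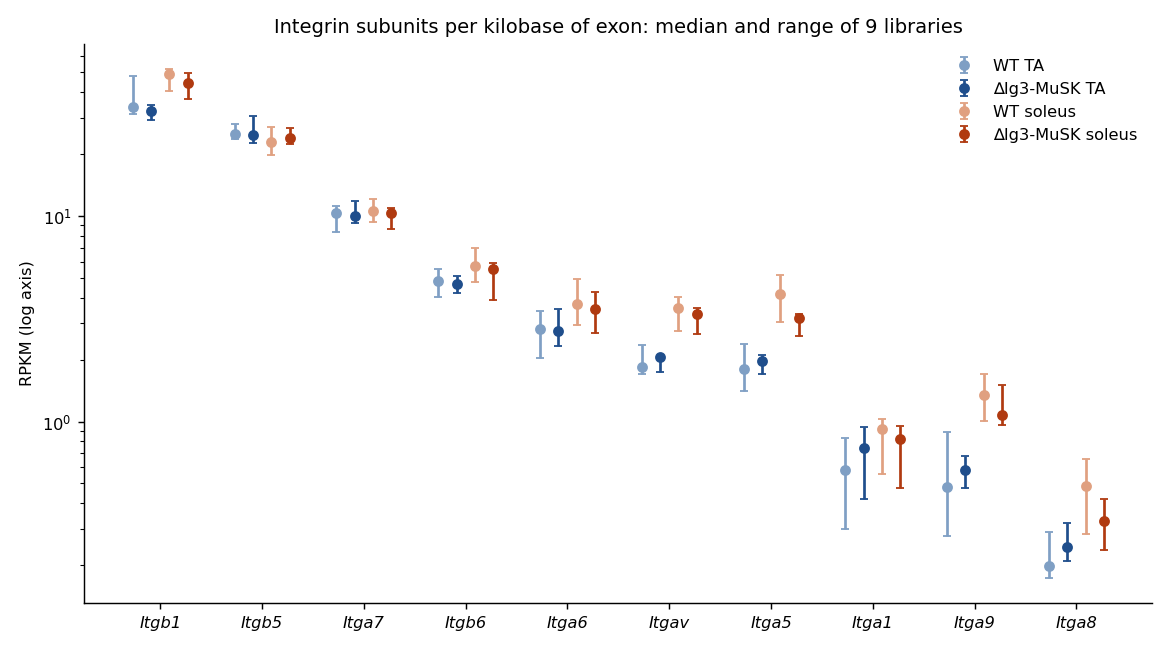
Levels of the 10 integrin subunits in RPKM on a log axis; points are medians and bars the lowest to highest of 9 libraries in each group, ordered by the WT TA median. Itgb1, Itgb5, Itga7 and Itgb6 lead in each group, and Itga8 is lowest, at medians of 0.198 to 0.487 RPKM.

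The first comparison asked how the 10 genes differ between the slow soleus and the fast TA. Most were higher in the soleus: 7 of the 10 were called higher in WT soleus than in WT TA and 6 of the 10 in ∆Ig3-MuSK soleus than in ∆Ig3-MuSK TA, and 0 were called lower. Genes were called at an adjusted p under 0.05 and at least a 1.2-fold change with edgeR's quasi-likelihood test in a single fit over the 36 libraries. By the same rule 30.2% of the 20841 genes tested were called higher in WT soleus, and 28.5% in ∆Ig3-MuSK soleus. The median log2 fold change of the 10 genes was 0.56 in WT and 0.37 in ∆Ig3-MuSK, beside 0.018 and −0.0013 over all genes tested. Among the 8 genes other than Itga5 and Itga8, 5 were called in WT and 4 in ∆Ig3-MuSK, with medians of 0.47 and 0.26 on the log2 scale. Without WT soleus libraries 1 and 2 again 7 members were called in WT, and the log2 fold changes were 1.53 for Itga9, 1.36 for Itga8, 1.24 for Itga5 and 0.95 for Itgav. The WT and ∆Ig3-MuSK comparisons share no library. Of all genes, 6297 were called higher and 5682 lower in WT soleus, and 8638 and 3615 with library totals in place of TMM factors. The TA and soleus counts were deposited in separate tables with different depths, so that a difference in handling between the muscles cannot be told apart from a difference in the tissue.

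Itga9, the tenascin-binding chain, differed most between the muscles in each genotype. It lay at 2.13 to 6.84 CPM in WT TA (median 3.69) and at 7.78 to 13.1 CPM in WT soleus (median 10.4). In ∆Ig3-MuSK it lay at 3.64 to 5.22 CPM in the TA (median 4.45) and 7.43 to 11.6 CPM in the soleus (median 8.29). The muscles did not overlap in either genotype. How many of all genes lack such an overlap was not counted, here or for the members that follow, so that it is not a trait particular to them. With edgeR 69.6% of all genes in WT and 68.8% in ∆Ig3-MuSK had an unadjusted p under 0.05 between the muscles. The log2 fold change of Itga9 was 1.44 (standard error 0.13, adjusted p = 1.2e-12, edgeR) in WT and 0.94 (standard error 0.13, adjusted p = 3.03e-08, edgeR) in ∆Ig3-MuSK.

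Itgav, the RGD-binding chain with the widest choice of partners, lay at 18.3 to 25.4 CPM in WT TA (median 19.9) and rose to a range of 29.5 to 43.5 CPM in WT soleus (median 38.2). In ∆Ig3-MuSK it lay at 18.7 to 22.5 CPM in the TA (median 22.0) and at 28.8 to 38.2 CPM in the soleus (median 35.7). Here too all 9 soleus libraries of a genotype lay above its 9 TA libraries. The log2 fold change was 0.88 (standard error 0.07, adjusted p = 2.89e-14, edgeR) in WT and 0.67 (standard error 0.07, adjusted p = 4.2e-11, edgeR) in ∆Ig3-MuSK.

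Itga5 and Itga8 are given as values only, since the soleus libraries that led to their choice also enter these differences. The fibronectin receptor chain Itga5 lay at 6.95 to 11.8 CPM in WT TA (median 8.87) and 15.002 to 25.5 CPM in WT soleus (median 20.6), and at 8.43 to 10.4 CPM in ∆Ig3-MuSK TA (median 9.71) and 12.9 to 16.5 CPM in ∆Ig3-MuSK soleus (median 15.6). No soleus library overlapped the TA range of its genotype, and the log2 fold change was 1.15 (standard error 0.09) in WT and 0.64 (standard error 0.09) in ∆Ig3-MuSK. Itga8 lay at 1.28 to 2.13 CPM in WT TA (median 1.46), 2.09 to 4.83 CPM in WT soleus (median 3.59), 1.54 to 2.36 CPM in ∆Ig3-MuSK TA (median 1.80) and 1.75 to 3.105 CPM in ∆Ig3-MuSK soleus (median 2.41). Its ranges overlapped in each genotype, with 8 of 9 WT and 5 of 9 ∆Ig3-MuSK soleus libraries above the highest TA library. The log2 fold change was 1.22 (standard error 0.13) in WT and 0.40 (standard error 0.13) in ∆Ig3-MuSK. An antisense gene, E030013I19Rik, overlaps 372 bp of Itga8 exon with a median count of 15, and reads in the overlap cannot be assigned by strand in these libraries.

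Itgb1, the shared beta chain, was at 128 to 195 CPM in WT TA (median 138) and 165 to 211 CPM in WT soleus (median 200.2), and at 119.6 to 141 CPM in ∆Ig3-MuSK TA (median 133) and 152 to 202 CPM in ∆Ig3-MuSK soleus (median 182). The ranges overlapped in WT, where a single TA library reached 195 CPM, and did not in ∆Ig3-MuSK. The log2 fold change was 0.45 (standard error 0.06, adjusted p = 1.32e-07, edgeR) in WT and 0.48 (standard error 0.06, adjusted p = 3.36e-08, edgeR) in ∆Ig3-MuSK, close to each other. The values of every alpha chain listed here and of Itgb6 were smaller in ∆Ig3-MuSK than in WT. The difference between these muscle effects is the interaction given after the genotype comparison.

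The laminin receptor chains Itga6 and Itga7 had unlike values. Itga6 was higher in the soleus, at 26.7 to 44.5 CPM (median 33.6) against 18.5 to 31.2 CPM (median 25.6) in WT and at 24.4 to 38.3 CPM (median 31.7) against 21.1 to 31.9 CPM (median 24.8) in ∆Ig3-MuSK. Its log2 fold change was 0.50 (standard error 0.10, adjusted p = 4.48e-05, edgeR) in WT and 0.33 (standard error 0.10, adjusted p = 0.0043, edgeR) in ∆Ig3-MuSK, with overlapping ranges in each. Itga7 had medians of 83.4 CPM in WT TA, 85.3 CPM in WT soleus, 80.9 CPM in ∆Ig3-MuSK TA and 83.4 CPM in ∆Ig3-MuSK soleus, within a range of 67.7 to 97.6 CPM over all 36 libraries. Its log2 fold change was 0.11 (95% interval 0.0031 to 0.22, adjusted p = 0.073, edgeR) in WT and 0.04 (95% interval −0.067 to 0.15, adjusted p = 0.539, edgeR) in ∆Ig3-MuSK. It was not called in either genotype. With library totals in place of TMM factors Itga7 was called in WT at a log2 fold change of 0.29, a scaling that moved the median of all genes to 0.20 and left Itga7 0.087 above it.

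Itga1, the collagen receptor chain, was called in WT and not in ∆Ig3-MuSK. Itga1 lay at 5.58 to 15.4 CPM in WT TA (median 10.8) and 10.3 to 19.2 CPM in WT soleus (median 17.1), and at 7.85 to 17.4 CPM in ∆Ig3-MuSK TA (median 13.9) and 8.83 to 17.6 CPM in ∆Ig3-MuSK soleus (median 15.2). The groups overlapped in each genotype. The log2 fold change was 0.62 (standard error 0.16, adjusted p = 0.000728, edgeR) in WT and 0.06 (95% interval −0.25 to 0.36, adjusted p = 0.755, edgeR) in ∆Ig3-MuSK.

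Itgb5 and Itgb6, the beta chains that pair with the Itgav product, were not called in either genotype with edgeR and TMM factors. Itgb5 was at 84.5 to 99.8 CPM in WT TA (median 88.9) and 70.7 to 96.7 CPM in WT soleus (median 81.2), and at 80.05 to 108 CPM in ∆Ig3-MuSK TA (median 87.9) and 79.3 to 95.6 CPM in ∆Ig3-MuSK soleus (median 85.3). Its log2 fold change was −0.13 (standard error 0.05, adjusted p = 0.0324, edgeR) in WT, under the fold minimum and of the opposite sign (0.046) with library totals, and −0.06 (standard error 0.05, adjusted p = 0.366, edgeR) in ∆Ig3-MuSK. Itgb6 was at 28.7 to 39.4 CPM in WT TA (median 34.5) and 34.0 to 49.7 CPM in WT soleus (median 40.8), and at 29.9 to 36.1 CPM in ∆Ig3-MuSK TA (median 33.2) and 27.8 to 42.1 CPM in ∆Ig3-MuSK soleus (median 39.2). Its log2 fold change of 0.26 in WT (standard error 0.08, adjusted p = 0.00255, edgeR) sat just under the fold minimum, and it passed, at 0.26 to 0.29, when any 1 of WT soleus libraries 3, 4, 7, 8 or 9 or WT TA libraries 6, 7, 8 or 9 was left out. With library totals it was called at 0.44, or 0.24 above the median of all genes, and without WT soleus libraries 1 and 2 it was 0.19 and not called. In ∆Ig3-MuSK the value for Itgb6 was 0.18 (standard error 0.08, adjusted p = 0.0341, edgeR). The 4 epithelial markers Epcam, Cdh1, Krt8 and Krt18, which mark the usual site of Itgb6, summed to at most 2.31 CPM in any library.

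**Figure D2:**
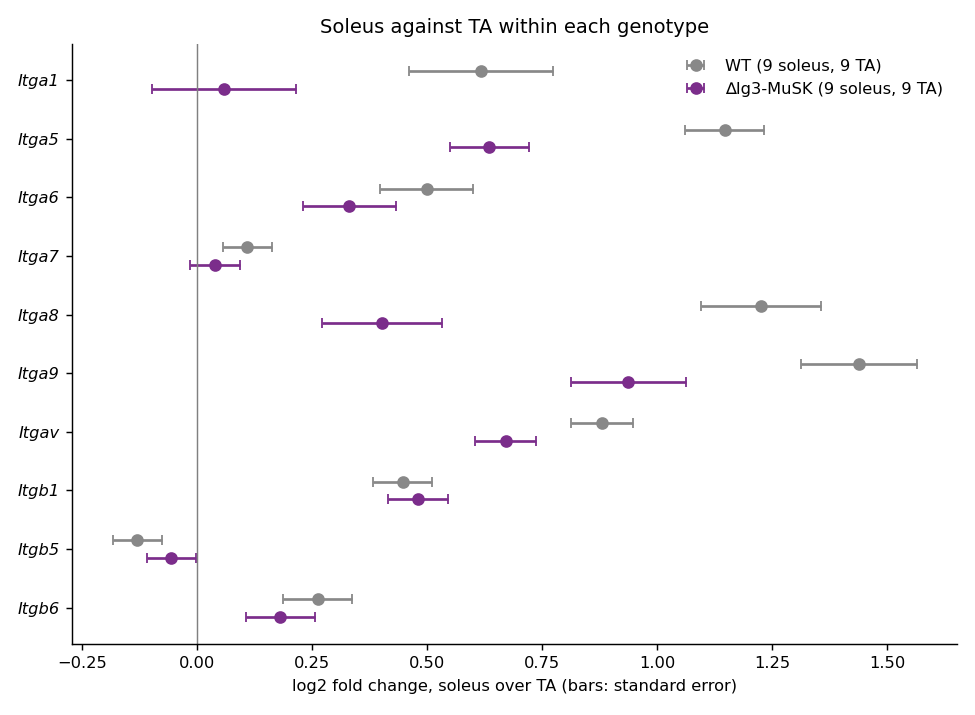
log2 fold change of soleus over TA for each gene in WT (grey) and ∆Ig3-MuSK (purple), 9 libraries per muscle and genotype; bars are standard errors. Itga9 has the highest point in each genotype (1.44 and 0.94), and Itga7 and Itgb5 sit next to 0. The purple points of every alpha chain and of Itgb6 lie to the left of the grey ones, farthest for Itga8 and Itga1.

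The second comparison was of ∆Ig3-MuSK with WT within each muscle, the comparison behind the choice of the genes, and all its member values are descriptive. In the soleus, 1 of the 10 genes (Itga5) was called lower with edgeR, beside 0.586% of the 19439 genes tested, a count that the choice of Itga5 fixed and from which nothing is read. A negative log2 fold change was seen for 9 of the 10, beside 50.6% of all genes. With library totals, which moved the median of all genes to −0.082, Itgb5 was negative too (−0.014) but stayed 0.068 above that median. The median of the 10 was −0.16, beside −0.0017 over all genes. Itga5 and Itga8, on which the set was chosen, are among the 9 negative genes and enter this median. Over the other 8 genes the median was −0.15. Of all genes 71 were called higher and 114 lower in this comparison, and 48 and 269 with library totals. Fold changes within a muscle were fitted on that muscle's 18 libraries and its own TMM factors, while CPM are on the scale of all 36.

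Itga5 had a median of 15.6 CPM in ∆Ig3-MuSK soleus and 20.6 CPM in WT soleus. All 9 ∆Ig3-MuSK libraries lay below the WT median, 4 of them below the lowest WT library, and the ranges overlapped between 15.002 and 16.5 CPM. The ratio of the means was 0.754 and the log2 fold change −0.42 (standard error 0.09). The spread was narrower in ∆Ig3-MuSK, with a coefficient of variation of 8.07% against 17.9% in WT. With edgeR Itga5 was not called when any of WT soleus libraries 4, 5, 6, 8 or 9 or ∆Ig3-MuSK soleus libraries 1, 2, 3, 4, 5 or 8 was left out, with log2 fold changes of −0.37 to −0.43. WT soleus libraries 1 and 2 held the low WT values, and without both of them the log2 fold change of Itga5 was −0.52 (standard error 0.07). In the TA, at medians of 9.71 CPM in ∆Ig3-MuSK and 8.87 CPM in WT, Itga5 differed by 0.10 (standard error 0.08), with overlapping ranges.

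Itga8 differed with opposite signs in the soleus and in the TA. In the soleus the medians were 2.41 and 3.59 CPM, all 9 ∆Ig3-MuSK values were under the WT median and 3 under every WT value, and the log2 fold change was −0.57 (standard error 0.15). Without WT soleus library 1 it was −0.64, without library 2 −0.62, and without both −0.70 (standard error 0.13), and without ∆Ig3-MuSK soleus library 8 it was −0.52 (standard error 0.15). In the TA the medians were 1.80 CPM in ∆Ig3-MuSK and 1.46 CPM in WT, with all 9 ∆Ig3-MuSK values over the WT median and 1 over every WT value. Itga8 differed there by 0.27 on the log2 scale (standard error 0.11), and by 0.34 (standard error 0.09) without WT TA library 9, the highest of its group.

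The remaining alpha chains had smaller differences, most of them of the same signs. Itga9 had medians of 8.29 CPM in ∆Ig3-MuSK and 10.4 CPM in WT soleus, 3 of the 9 ∆Ig3-MuSK values lying under all WT values, and a log2 fold change of −0.32 (standard error 0.10). Without WT soleus library 1 it was −0.37, and without libraries 1 and 2 −0.41 (standard error 0.09). In the TA it was 0.19 (standard error 0.14), and 0.34 (standard error 0.10) without WT TA library 9, which at 6.84 CPM stood far above the rest. Itga1 had a log2 fold change of −0.18 (standard error 0.13) in the soleus and 0.39 (standard error 0.17) in the TA, where 8 of 9 ∆Ig3-MuSK libraries lay above the WT median. Itgav differed by −0.16 (standard error 0.07) in the soleus and 0.07 (standard error 0.06) in the TA. Itga6 differed by −0.15 (standard error 0.10) and 0.03 (standard error 0.10), and Itga7 by −0.08 (standard error 0.05) and −0.0011 (standard error 0.06), in the soleus and the TA respectively.

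The beta chains had small differences in both muscles. In the soleus the log2 fold changes were −0.09 (standard error 0.06) for Itgb1, 0.06 (standard error 0.05) for Itgb5 and −0.15 (standard error 0.08) for Itgb6. In the TA they were −0.11 (standard error 0.07), −0.0031 (standard error 0.05) and −0.06 (standard error 0.06). In the TA 0 of the 10 genes were called with edgeR, DESeq2 or limma-voom, beside 0.0149% of the 20075 genes tested with edgeR, and 2 of the 10 (1 of the 8 other than Itga5 and Itga8) had an unadjusted p under 0.05, beside 24.1% of all genes.

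**Figure D3:**
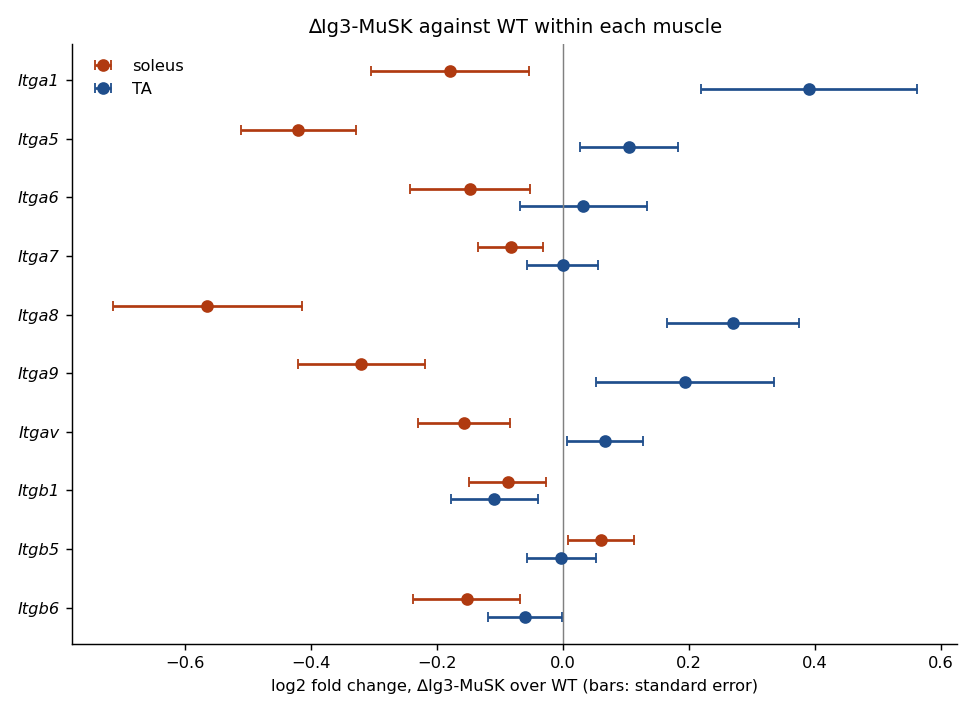
log2 fold change of ∆Ig3-MuSK over WT for each gene in the soleus (red) and the TA (blue), each from 18 libraries; bars are standard errors. Itga8 has the lowest soleus value (−0.57) and a TA value of 0.27, Itga5 is at −0.42 and 0.10, and Itgb1, Itgb5 and Itga7 lie within 0.11 of 0 in each muscle.

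The genotype-by-muscle interaction, the soleus effect minus the TA effect in the fit over 36 libraries, was negative for 8 of the 10 genes, with a median of −0.19 beside −0.0024 over all genes. Itga5 and Itga8, on which the set was chosen, are among these negative genes and enter this median. Over the genes other than these 2 the median was −0.12. The interaction was −0.82 (standard error 0.18) for Itga8, −0.56 (standard error 0.22) for Itga1, −0.51 (standard error 0.12) for Itga5, −0.50 (standard error 0.18) for Itga9 and −0.21 (standard error 0.09) for Itgav. Itga6, Itga7 and Itgb6 lay at −0.17, −0.07 and −0.08, and Itgb1 and Itgb5 at 0.03 and 0.07, both of which turned negative with library totals. With edgeR 0 of the 10 genes were called, beside 0.0% of the 20841 tested, of which 5193 (24.9%) had an unadjusted p under 0.05, among them 5 of the 10 and 3 of the 8 other than Itga5 and Itga8. DESeq2 called 797 genes, of which 1 was a member (Itga5), and limma-voom with sample quality weights called 959, with 4 members (Itga1, Itga5, Itga8 and Itga9). With the shared label number as a random block limma-voom called 9 genes and 0 members. These calls, and those that follow with libraries left out, show how the count moves with the setting. They are no test of the genes, since their choice used these values. With edgeR Itga5 and Itga8 were called without WT soleus library 1, WT TA library 9 or ∆Ig3-MuSK TA library 3, with values of −0.52 to −0.57 and −0.83 to −0.90, and Itga9 without WT TA library 9, at −0.65. Without WT soleus libraries 1 and 2 the values were −0.61 for Itga5, −0.96 for Itga8 and −0.59 for Itga9, and these 3 were called.

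**Figure D4:**
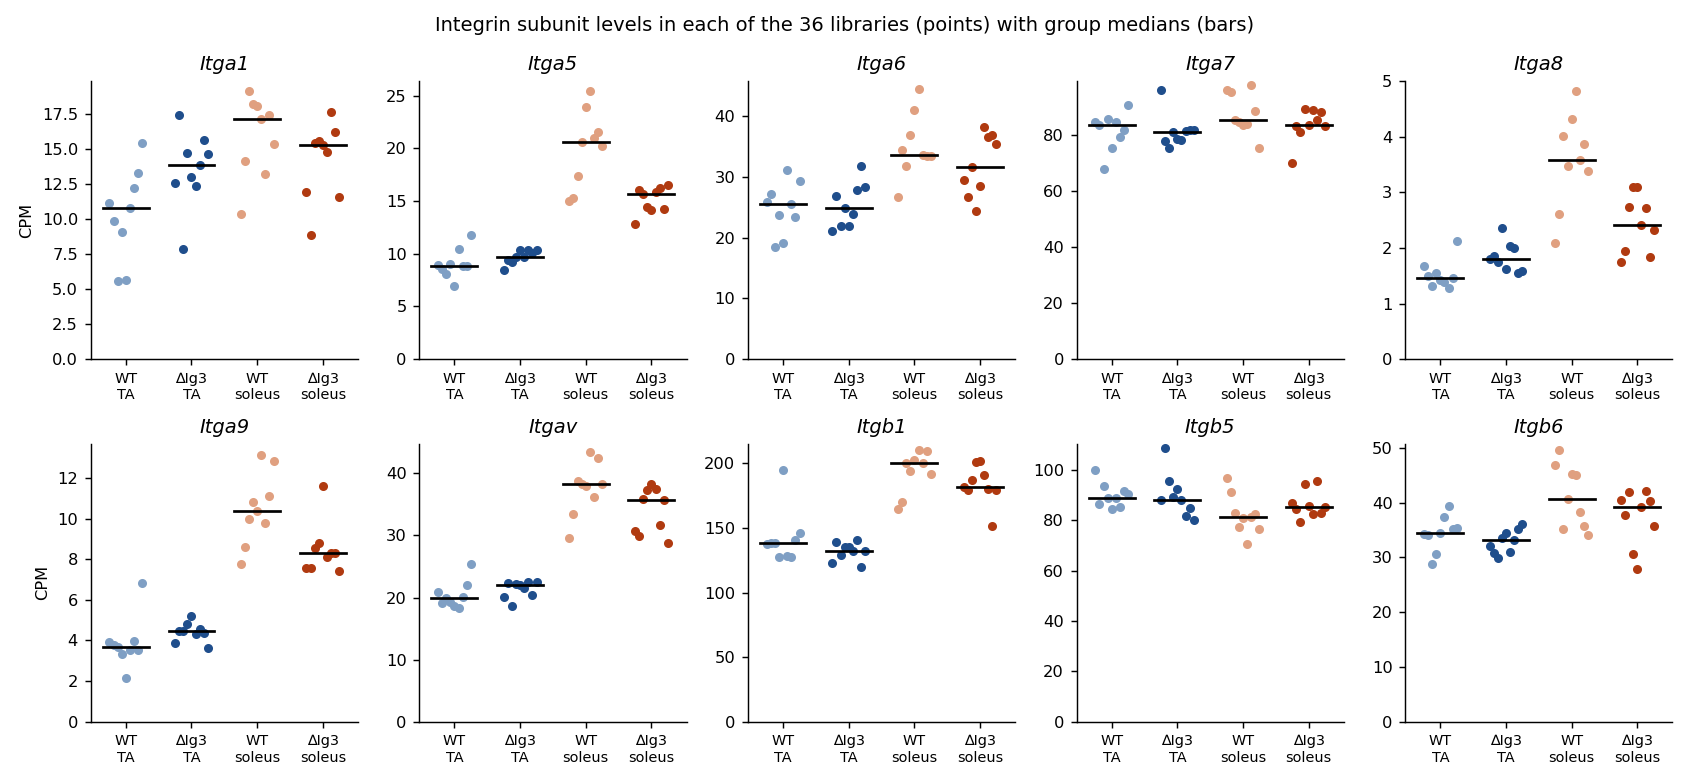
CPM of the 10 integrin subunits in each of the 36 libraries; points are libraries, spread sideways to be visible, and bars are group medians. For Itga5, Itga9 and Itgav the soleus points lie above the TA points of the same genotype without overlap, and in ∆Ig3-MuSK soleus all 9 points of Itga5 and Itga8 lie below the WT soleus medians of 20.6 and 3.59 CPM. The share of all genes without overlap between the muscles was not counted.

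Of the 16 further integrin subunits tested, 10 were called higher and 1 lower in WT soleus than in WT TA, and 4 higher and 2 lower in ∆Ig3-MuSK. Of all 20841 genes 30.2% and 28.5% were called higher, and 5682 and 5743 lower, in the same comparisons, so that the ∆Ig3-MuSK count of further integrins was no larger than the share of all genes. Itgae, the alpha chain by which T cells bind E-cadherin, rose by 1.71 (adjusted p = 4.06e-10, edgeR) in WT and 1.78 in ∆Ig3-MuSK on the log2 scale, and Itga4, the leukocyte and progenitor chain for Vcam1, fell by 2.61 and 3.22. Levels of Itgae were low, with medians of 0.36 CPM in WT TA and 1.22 CPM in WT soleus, and those of Itgax were 0.34 and 0.42 CPM. Itgad (1.202 and 1.53), Itgb4 (0.63 and 0.36) and Itgb8 (0.84 and 1.05) also rose in each genotype. Itga2 (1.5005), Itga11 (0.83), Itga10 (0.65), Itgax (0.63), Itgb3 (0.62) and Itgb7 (0.54) were called higher in WT and not in ∆Ig3-MuSK, and Itga3 (−0.43) was called lower in ∆Ig3-MuSK and not in WT, but for the interaction, with a median of −0.33, edgeR called 0 of the 16 (5 at an unadjusted p under 0.05), DESeq2 1 and limma-voom 1, and edgeR without WT soleus libraries 1 and 2 called 3. Over all genes these 4 settings called 0, 797, 959 and 1387 for the interaction. In the soleus 1 of the 16 was called lower in ∆Ig3-MuSK, beside 0.586% of all genes tested. This was Itga2, another collagen receptor chain, at −1.49 on the log2 scale (standard error 0.35, adjusted p = 0.0405, edgeR). Its level was near the floor, at 0.21 to 1.13 CPM in WT and 0.13 to 0.48 CPM in ∆Ig3-MuSK soleus, with overlapping ranges. Negative values were seen for 15 of the 16, beside 50.6% of all genes, with a median of −0.23. Without WT soleus libraries 1 and 2, edgeR called 2 of the 16 lower, beside 756 of 19676 genes. In the TA edgeR and DESeq2 called 0 (3 at an unadjusted p under 0.05 in each) and limma-voom 1, beside 3, 225 and 150 of all 20075 genes.

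Of the 34 integrin ligand genes tested, 26 were called higher and 1 lower in WT soleus than in WT TA, and 17 higher and 4 lower in ∆Ig3-MuSK, to be read beside the same shares of all genes. The ligand genes with the largest log2 fold changes in WT were Thbs1 (2.48), Fn1 (2.09) and Npnt (2.04), and among the largest in ∆Ig3-MuSK were Npnt (1.97) and Lama5, a laminin chain, which fell by 1.38. Npnt encodes nephronectin, the Itga8 ligand, and Fn1 encodes fibronectin, the Itga5 ligand. In ∆Ig3-MuSK soleus against WT soleus 2 of the 34 were called lower, beside 0.586% of all genes tested. These were the matricellular genes Thbs1 (log2 fold change −1.42, adjusted p = 0.0378, edgeR) and Ccn1 (−0.76, adjusted p = 0.0219, edgeR). Of the 34, 33 were negative, beside 50.6% of all genes, with a median of −0.41. DESeq2 called 7 and limma-voom 8 of them lower, beside 324 and 390 of all 19439 genes. Without WT soleus libraries 1 and 2 edgeR called 17 lower, beside 756 of 19676 genes. ∆Ig3-MuSK soleus library 8 had the lowest ligand sum of its group, at 1207 CPM, and these counts are not given without it. In the TA edgeR, DESeq2 and limma-voom called 0 of the ligand genes, with 4, 6 and 8 at an unadjusted p under 0.05, beside 24.1% of all genes with edgeR, and the median was 0.03. The 24 cytoplasmic partners tested gave 11 higher and 2 lower in WT and 8 higher and 3 lower in ∆Ig3-MuSK soleus against TA. Of all 20841 genes 30.2% and 28.5% were called higher, and 5682 and 5743 lower, in these comparisons. By genotype edgeR called 0 of the partners in each muscle, beside 185 of 19439 genes in the soleus and 3 of 20075 in the TA. An unadjusted p under 0.05 was seen for 8 in the soleus, beside 18.5% of all genes, and for 6 in the TA, beside 24.1%. DESeq2 called 1 partner in each muscle, limma-voom 0 in the soleus and 1 in the TA, and edgeR without WT soleus libraries 1 and 2 called 3 lower in the soleus. Over all genes DESeq2 called 486 in the soleus and 225 in the TA, and limma-voom 653 and 150. Without those 2 libraries edgeR called 756 of 19676 genes lower. Among the partners Flnc, a filamin of the Z-disc, rose by 1.80 in WT and 1.504 in ∆Ig3-MuSK, and Lims1, the adaptor PINCH, rose by 1.71 and 1.75. Actn1, an alpha-actinin, rose by 0.88 in WT, and Tln2, the talin of mature muscle, by 0.64 in ∆Ig3-MuSK. Both had higher medians in the soleus than in the TA in each genotype. Actn1 went from 8.51 to 14.3 CPM in WT and from 9.15 to 10.5 CPM in ∆Ig3-MuSK, and Tln2 from 82.0 to 124 CPM and from 86.1 to 137 CPM.

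Markers of other cells moved with some of these comparisons, and their part in the integrin values was not tested. Between muscles, all 5 tendon markers were called higher in the soleus of each genotype, the summed level lying at 128 to 218 CPM in WT TA and 259 to 680 CPM in WT soleus. Of 6 endothelial markers 5 were called higher in WT soleus and 4 in ∆Ig3-MuSK soleus, with sums of 199 to 276 CPM in WT TA and 291 to 388 CPM in WT soleus. Of 7 smooth muscle and pericyte markers 5 were called higher in WT soleus, and 2 higher and 1 lower in ∆Ig3-MuSK soleus, with sums of 404 to 494 CPM in WT TA and 520 to 620 CPM in WT soleus, and of 4 satellite cell markers 3 were called higher in WT and 4 in ∆Ig3-MuSK. All 7 immediate early genes were called higher in WT soleus and 5 in ∆Ig3-MuSK soleus. Of 6 fibroblast markers 2 were called higher and 1 lower in WT soleus, and 1 lower in ∆Ig3-MuSK soleus. All these marker counts are to be read beside those of all 20841 genes. In WT soleus 30.2% of them were called higher and 5682 lower, and in ∆Ig3-MuSK soleus 28.5% higher and 5743 lower.

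Between genotypes in the soleus, Acta2, an actin of smooth muscle, was called with edgeR (log2 fold change −0.38, adjusted p = 0.0496) and no other gene of these marker lists was. DESeq2 called 2 smooth muscle markers lower, and 1 each of the endothelial, fibroblast, tendon and immediate early markers. With limma-voom 3 smooth muscle and 2 immediate early markers were called lower, and 1 each of the endothelial, fibroblast and tendon markers. Of all 19439 genes these tools called 324 and 390 lower. Without WT soleus libraries 1 and 2, edgeR called 4 of 7 smooth muscle, 2 of 6 fibroblast, 2 of 7 immediate early, 1 of 5 tendon and 1 of 6 endothelial markers lower and 3 of 4 fast-fiber markers higher. Of all 19676 genes tested in that setting, 756 were called lower and 484 higher. The 4 fast-fiber markers had summed levels of 10040 to 24863 CPM in WT soleus (median 13923) and 14799 to 23194 CPM in ∆Ig3-MuSK soleus (median 19020). Tendon markers summed to a median of 456 CPM in WT and 310 CPM in ∆Ig3-MuSK soleus, immediate early genes to 181 and 130 CPM, fibroblast markers to 833 and 660 CPM, macrophage markers to 44.0 and 38.2 CPM and endothelial markers to 344 and 313 CPM. The smooth muscle and pericyte markers summed to 599 and 592 CPM. Of these 7 genes 6 had negative log2 fold changes and 1 a positive one, Rgs5, at medians of 402 CPM in WT and 424 CPM in ∆Ig3-MuSK soleus. All 6 Schwann and myelin markers had positive values, with median sums of 82.6 and 88.3 CPM. The slow-fiber sums were 14823 and 14247 CPM at the median. In the TA the endothelial sums were 247 and 246 CPM and the smooth muscle sums 442 and 457 CPM at the median.

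Within groups, after the group means were taken out, the 9 highest of the 45 Pearson correlations between members over the 36 libraries were all between alpha chains. Most members are alpha chains, so that many of the 45 pairs are of this kind. The last of the 9 was Itga1 with Itga9 at 0.56, and Itga8 with Itgb1 came next at 0.55. The highest were 0.69 for Itga8 with Itgav, 0.69 for Itga9 with Itgav and 0.67 for Itga5 with Itga6, while the lowest of the 45 was −0.40 for Itga5 with Itgb5. Itga7 correlated with no other member above 0.30. These points share the library, its depth and its make-up, and the correlations are a description. The 5 genes most like Itga5 by this measure were Myadm (Pearson r 0.73, Spearman rho 0.67), Myo1e, a myosin of class I (0.73 and 0.65), Ints2 (0.73 and 0.62), Jdp2, a bZIP repressor (0.72 and 0.70), and Tram2 (0.72 and 0.65). Most like Itga8 were Cd109 (0.77 and 0.72), App, the amyloid precursor protein (0.75 and 0.73), Ncam1, a neural cell adhesion molecule (0.75 and 0.70), Golim4 (0.74 and 0.78) and Cald1, encoding caldesmon (0.74 and 0.69). The likeness differed by group of 9 libraries: for the genes most like Itga5 Pearson r was 0.86 to 0.96 in WT soleus and −0.052 (Myo1e) to 0.57 (Jdp2) in ∆Ig3-MuSK TA, and for those most like Itga8 it was 0.83 to 0.90 and 0.16 (App) to 0.48 (Cald1).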

How the data were processed

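Whole TA and soleus muscles had been stored in RNAlater and extracted with the RNeasy Fibrous Tissue kit, and libraries without strand information were made with NEBNext Ultra. The authors trimmed reads with Trimmomatic, aligned them to mm10 (GRCm38) with GSNAP and deposited raw gene counts from htseq-count, 1 table per muscle. Their versions, the annotation release and the counting mode are not given in the sources used here. The deposited counts were used as they are. Of 51912 Ensembl IDs, 51633 matched a gene symbol, and 51719 had exons in GENCODE M21, whose exon unions gave the gene lengths for RPKM. All 10 integrin genes passed the filter on low counts.

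Counts were analysed in R 4.3.3 with edgeR 4.0.16 (filterByExpr with a minimum count of 10 and a total of 15, TMM factors of 0.811 to 1.19, quasi-likelihood test, Benjamini-Hochberg over all genes tested). Muscle contrasts and the interaction came from 1 fit over 36 libraries, and genotype contrasts from the 18 libraries of each muscle. The study also compared the genotypes within each muscle, but called its genes with DESeq2 and not with edgeR. A gene was called at an adjusted p under 0.05 and at least a 1.2-fold change. Standard errors are the log2 fold change over the square root of F, and 95% intervals use the normal quantile. DESeq2 1.42.0, limma 3.58.1 (voom with sample quality weights), other scaling and filters, and the omission of libraries were tried, and the fitting was tested on simulated data. The omission of WT soleus libraries 1 and 2 together, the random block by shared number for the muscle contrasts and the omission of libraries for the interaction were chosen after seeing the data.

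The members, the lists of other integrins, ligands, partners and markers, and the rule for named genes (all members, the called further integrins, the 3 called ligands and partners with the largest change, and the 5 genes most like Itga5 and Itga8) were chosen with earlier results of these data known. A ligand that this rule would name is not reported here. Libraries are separate samples in the labels, and no 2 were copies, since their counts differed by at least 11.7 times the sampling variance. P-values measure the spread between these samples. The labels of TA and soleus share 8 numbers per genotype, while the study describes 1 muscle per animal. Deviations from the group means correlated at 0.104 to 0.568 for the 8 ∆Ig3-MuSK numbers and at −0.019 to 0.285 for the 8 WT numbers, so that every ∆Ig3-MuSK number passed the limit of 0.1 and not every WT number did. Of the 8 numbers, 6 in ∆Ig3-MuSK and 4 in WT correlated best with their own, and the median was 0.312 and 0.115, beside −0.018 for other pairs in each genotype.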

Additional observations from a re-analysis of the deposited data

Results flagged for a closer look

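In 7 of the 40 sets of 9 libraries (10 genes in 4 groups) a library stood farther from its neighbour than Dixon's limit allows, where chance gives about 1 set in 20. Itga8 (2.13 CPM) and Itga9 (6.84 CPM) were both highest in WT TA library 9. That library also had the highest summed CPM of the integrin ligands (2482) and of the immediate early genes (158) among WT TA libraries. Itgb1 reached 195 CPM in WT TA library 5 and was lowest, at 152 CPM, in ∆Ig3-MuSK soleus library 8, the library with few tendon transcripts. Itga7 was highest at 95.9 CPM in ∆Ig3-MuSK TA library 1 and lowest at 69.8 CPM in ∆Ig3-MuSK soleus library 1. Itga9 reached 11.6 CPM in ∆Ig3-MuSK soleus library 5.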

How the results depend on the processing

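In the soleus genotype comparison the number of members called was 1 with edgeR, 2 with DESeq2, 2 with a single fit over 36 libraries, 2 with title replicate numbers as a block, 3 with limma-voom quality weights and 3 without WT soleus libraries 1 and 2, and 0 to 3 when single libraries were left out. For the interaction it was 0 with edgeR, 1 with DESeq2, 4 with limma-voom, 0 with limma-voom and the shared number as a random block, 3 without WT soleus libraries 1 and 2 and 0 to 3 with single libraries left out. The cause of these differences was not tested. The muscle calls stayed at 7 to 9 members in WT and 6 to 7 in ∆Ig3-MuSK under every alternative run.

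Library totals turned the sign of Itgb5 in WT soleus against TA (0.046), Itgb5 in the soleus genotype comparison (−0.014), Itga7 (0.039) and Itgb5 (0.039) in the TA, and Itgb1 (−0.11) and Itgb5 (−0.053) in the interaction, in which they moved the median of all genes by −0.14. Itgb1 also turned with limma-voom (−0.041) and without WT soleus libraries 1 and 2 (−0.021). In the TA, Itga7 and Itgb5 turned with at least 10 counts in every library (0.00224 and 0.000579), and Itga7 with the title number as a replicate block (0.000371). With single libraries left out the log2 fold change ran from −0.016 to 0.13 for Itga1 in ∆Ig3-MuSK soleus against TA, from −0.016 to 0.078 for Itga6, −0.034 to 0.018 for Itga7 and −0.041 to 0.017 for Itgb5 in the TA, and from −0.037 to 0.065 for Itgb1 in the interaction.

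Over all genes the soleus genotype calls were 185 with edgeR, 486 with DESeq2, 653 with limma-voom, 312 in a single fit over 36 libraries, 317 with library totals, 347 with the title block and 1240 without WT soleus libraries 1 and 2. The TA calls were 3, 225 with DESeq2, 150 with limma-voom, 692 in the single fit, 10 without the filter and 0 with the title block. For the interaction they were 0, 797, 959, 9 with the shared number as a random block, 4 with at least 10 counts in every library and 1387 without WT soleus libraries 1 and 2. Title replicate numbers come from different animals, and 1 of 9 libraries correlated best with its own number in each muscle. The block by shared number left the member calls at 7 in WT and 6 in ∆Ig3-MuSK. Depth limits Itga8 most, with as few as 63 counts.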
